A study of Mus musculus with 12 samples.

Results

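The alcohol and retinaldehyde dehydrogenase genes described here were 9 of the 21911 protein-coding genes of the GENCODE M21 annotation of mm10. They were *Adh1*, *Adh4*, *Adh5*, *Adh7*, *Aldh1a1*, *Aldh1a2*, *Aldh1a3*, *Aldh1a7* and *Aldh2*. The genes were listed by name, and *Aldh1a7* was chosen by the presence of its peaks in these same lists, in both MSM livers and neither B6 liver, so its strain pattern is described without a test. A peak was assigned to a gene when it overlapped the gene window, which is the gene body joined with 5 kb either side of the gene start, by at least 1 bp.

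The peaks mark histone H3 acetylated at lysine 9 (H3K9ac), found at active promoters and enhancers, in adult mouse liver fixed with formaldehyde and precipitated with an anti-H3K9ac antibody. The 6 livers were those of C57BL/6J mice (B6, n = 2), of MSM/Ms mice (MSM, n = 2), of the hybrid F1 BM (n = 1), whose mother was B6 and whose father was MSM, and of the reciprocal hybrid F1 MB (n = 1). The mice carried no engineered allele and had no treatment that the labels name. Each library was 1 mouse, so the F1 values have no replicate error, and in whole liver a smaller share of cells carrying the mark cannot be told apart from less mark per cell.

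Alcohol dehydrogenases oxidize alcohols to aldehydes, and aldehyde dehydrogenases oxidize aldehydes to acids. In the liver, ethanol becomes acetaldehyde and then acetate along this route, and retinol (vitamin A) becomes retinaldehyde and then retinoic acid, the ligand of the retinoic acid receptors. The hepatocyte is the main site of ethanol oxidation, whereas retinol is stored largely in stellate cells.

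The 6 peak lists held 11619 to 22968 peaks, and B6 replicate 2 had the shortest list while B6 replicate 1 had the longest. The gene windows of the 9 genes held 23 peaks in B6 replicate 1, 16 in B6 replicate 2, 33 in MSM replicate 1, 30 in MSM replicate 2, 34 in F1 BM and 16 in F1 MB. These totals include the peaks of the chosen *Aldh1a7*, and without them the MSM livers had 32 and 28 peaks and F1 BM 32. The length under those peaks was 17564 bp and 7518 bp in the B6 libraries, 21243 bp and 20433 bp in the MSM libraries, 24218 bp in F1 BM and 9426 bp in F1 MB. Without *Aldh1a7* it was 19641 bp and 18167 bp in the MSM libraries and 22665 bp in F1 BM, and it was not altered in the others. Of 7 hepatocyte markers, 6 (*Alb*, *Apoa1*, *Ttr*, *Cps1*, *Serpina1a* and *Cyp2e1*) had a peak within 1 kb of the gene start in every library, whereas *Hnf4a* had none there in any. Of 5 stellate cell markers, 1 had such a peak in F1 BM and none had one in the other libraries. Of 4 endothelial markers, 3 had one in B6 replicate 1, MSM replicate 2 and F1 BM, 2 in MSM replicate 1 and none in B6 replicate 2 and F1 MB. Of 4 Kupffer and immune cell markers and of 4 bile duct markers, 1 of each had a peak in B6 replicate 1 and none elsewhere. Whether the nonparenchymal peaks bear on the values below was not tested.

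At 7 of the 9 genes a peak was present in at least 1 library, and *Aldh1a2* and *Aldh1a3* had none in any library, as did 47.2% of all protein-coding genes. A peak within 1 kb of the gene start in all 6 libraries was found at 3 of the 9 genes (*Adh4*, *Adh5* and *Aldh2*), against 23.6% of all genes. *Adh7* and *Aldh1a1* had peaks in all 4 parental libraries but none at the GENCODE gene start in any library, a pattern shared by 2.94% of all genes. Their acetylation lay inside the annotated gene instead. At *Aldh1a1* this depends on the annotation, as all 6 libraries had a peak within 1 kb of an internal RefSeq start, whereas *Adh7* had none at its RefSeq start. *Adh1* had a peak at the GENCODE gene start in 4 libraries, and *Aldh1a7* in 3. At the internal RefSeq start of *Adh1* all 6 libraries had a peak.

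The promoter sequences were set beside the peaks at the same starts. The RefSeq promoter table for GRCm38.p6 held 9 starts of 7 of the 9 genes among 32851 promoters, each with 250 bases before and 50 after the start. A promoter was called CpG-rich when its GC content was at least 55% and its CpG count at least 0.6 of that expected from its C and G content. Only *Adh5* at its main start (65% GC, CpG ratio 0.903) and *Aldh1a2* (78% GC, ratio 1.11) were CpG-rich among these 9 starts. The 250 bases before both starts are shown because the pair differed in acetylation, with CG dinucleotides in capitals. They lie at chr3:138442843-138443092 for *Adh5* and chr9:71215539-71215788 for *Aldh1a2*, on the plus strand.
Adh5: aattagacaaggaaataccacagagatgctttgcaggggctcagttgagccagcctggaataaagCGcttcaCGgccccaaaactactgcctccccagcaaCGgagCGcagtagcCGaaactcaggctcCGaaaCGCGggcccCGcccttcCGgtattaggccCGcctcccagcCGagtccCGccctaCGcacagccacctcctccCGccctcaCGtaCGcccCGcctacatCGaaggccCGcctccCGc
Aldh1a2: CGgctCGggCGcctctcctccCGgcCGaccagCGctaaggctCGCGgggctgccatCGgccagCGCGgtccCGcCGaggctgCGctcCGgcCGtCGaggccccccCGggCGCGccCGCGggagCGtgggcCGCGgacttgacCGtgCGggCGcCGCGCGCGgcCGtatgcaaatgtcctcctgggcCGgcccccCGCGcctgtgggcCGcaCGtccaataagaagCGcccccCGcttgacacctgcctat
The *Adh5* stretch holds 21 CG and the *Aldh1a2* stretch 40. The start of *Adh5* had a peak in all 6 libraries, and that of *Aldh1a2* had none. Among all promoters of the table, 41.2% of the 9950 CpG-rich ones had a peak within 1 kb in all 6 libraries and 25.9% had none in any. Among the 22901 others, 8.62% had a peak in all 6 libraries and 80.6% had none. The RefSeq starts of *Adh1* (CpG ratio 0.402), *Adh4* (0.0779) and *Aldh1a1* at its internal start (0.0604) were among the 8.62%.

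The second pair shown is that of the paralogs *Aldh1a1* and *Aldh1a7*, neighbors on chromosome 19. The *Aldh1a1* stretch lies at chr19:20601718-20601967 on the plus strand and the *Aldh1a7* stretch at chr19:20727557-20727806 on the minus strand. Capitals mark the longest stretch that both promoters hold without a difference.
Aldh1a1: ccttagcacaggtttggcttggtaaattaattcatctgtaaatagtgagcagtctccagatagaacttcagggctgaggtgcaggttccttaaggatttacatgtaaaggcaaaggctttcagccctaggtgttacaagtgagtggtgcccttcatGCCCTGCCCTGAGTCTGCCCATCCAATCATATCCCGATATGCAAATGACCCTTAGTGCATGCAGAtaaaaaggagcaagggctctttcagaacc
Aldh1a7: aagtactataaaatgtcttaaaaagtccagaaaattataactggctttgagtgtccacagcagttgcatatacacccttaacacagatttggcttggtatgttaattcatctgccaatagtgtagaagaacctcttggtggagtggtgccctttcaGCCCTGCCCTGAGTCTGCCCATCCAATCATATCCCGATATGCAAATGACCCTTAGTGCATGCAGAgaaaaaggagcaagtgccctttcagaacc
The shared stretch is 65 bases long, begins at position -94 from both starts and occurs in these 2 of the 32851 promoters. Aligned over 300 bases the promoters were identical at 72.4% of the aligned columns, and over the last 100 bases before and 50 after the start at 95.4%. Of the motifs searched, CCAAT was found in both promoters at position -72 from the start, inside the shared stretch, and 37.4% of all promoters hold CCAAT on either strand. GTTAAT, searched on both strands and held by 7.10% of promoters, was found in the *Aldh1a7* promoter at position -150 and not in that of *Aldh1a1*. TATAAA, searched on the sense strand and held by 8.32% of promoters, was found in *Aldh1a7* at position -244. Next to these near identical starts, *Aldh1a1* had a peak in all 6 libraries and *Aldh1a7* in 3.

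*Adh1* encodes the class I enzyme, the main ethanol-oxidizing alcohol dehydrogenase of the liver. It spans 138260991 to 138290698 on chromosome 3, on the plus strand. Its strongest region, present in all 6 libraries, lay 15670 to 18356 bp into the annotated gene, around the RefSeq start at position 138277585. The highest fold enrichment of a peak, that is the signal at the peak summit relative to background, was 8.85 and 6.82 in B6, 8.002 and 8.18 in MSM, 6.19 in F1 BM and 7.08 in F1 MB. B6 and MSM overlapped on this measure, with a mean difference of 0.259 against a pooled SD within strains of 1.02 (exact two-sided permutation p = 1). A weaker region at the upstream GENCODE start, which belongs to a processed transcript, had a fold of 6.82 in B6 replicate 1, 5.40 and 4.80 in MSM and 3.55 in F1 BM, and no peak in B6 replicate 2 and F1 MB. *Adh1* had 1933 bp (F1 MB) to 5624 bp (F1 BM) under peaks, more than 96.0% to 99.4% of all protein-coding genes in the same library. The strains overlapped here as well, with 5429 and 2485 bp in B6 and 5117 and 4831 bp in MSM (difference 1017 bp, pooled SD 1479 bp, exact permutation p = 1). The overlap ended when equally many peaks were kept per list (917 bp higher in MSM, pooled SD 363 bp), with lists of the same covered length (801 bp) and within 5 kb of the GENCODE start alone (1595 bp), each with an exact permutation p of 0.333.

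*Adh4* encodes the class II enzyme, which is largely confined to the liver and oxidizes ethanol at high levels as well as retinol. Its 1 merged region with a peak in every library lay 45 to 1037 bp after the gene start at position 138415466 and overlapped the untranslated part of the first exon. The highest fold in the window was 6.34 and 4.65 in B6, 7.51 and 4.55 in MSM, 7.25 in F1 BM and 5.09 in F1 MB. In each strain 1 library was high and the other low, and the strains overlapped (difference 0.537, pooled SD 1.71, exact permutation p = 1). In MSM replicate 2 the highest value came from a separate peak at -588 to -329 bp from the start, which no other library had. The length under peaks ranged from 526 to 993 bp and differed between the strains by 76.5 bp (pooled SD 194 bp, exact permutation p = 1). With lists of the same covered length, where B6 replicate 1 kept 0 bp, the overlap ended and MSM was 362 bp higher (exact permutation p = 0.333). The motif AGGTCA, searched on both strands and held by 16.3% of all promoters, occurred at positions -133 and -11 from the RefSeq start of *Adh4* and at no other listed start of these genes. Of the 50-base stretches in the common region, 56.1% occurred once in the reference genome, the lowest share among the regions examined on chromosomes 3 and 19.

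*Adh5* encodes the class III enzyme, a glutathione-dependent formaldehyde dehydrogenase active in most tissues. In all 6 libraries a peak began between -5 and 46 bp from its start at position 138443093. The highest fold was 12.5 and 7.59 in B6, 6.78 and 10.9 in MSM, 8.28 in F1 BM and 8.70 in F1 MB. B6 replicate 1 and MSM replicate 2 were high and their strain partners lower, so that the strains overlapped (difference -1.16, pooled SD 3.21, exact permutation p = 0.667). The summit lay 199 to 257 bp after the start in every library. From 722 to 1602 bp lay under peaks, and the strains differed by 45.5 bp (pooled SD 563 bp, exact permutation p = 1). A second RefSeq start of *Adh5*, at -5893 bp from the first, had no peak within 1 kb in any library. Its promoter was not CpG-rich, with a ratio of 0.182. At the main start GGGCGG, searched on both strands and held by 35.7% of all promoters, was found on the opposite strand at positions -108, -70 and -45, and at no other listed start of these genes. TTGCGCAA, searched on both strands and held by 0.183% of promoters, was found at none of them.

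*Adh7* encodes the class IV enzyme, known from the stomach and other epithelia and active on retinol. It had no peak within 1 kb of its start at position 138217760 in any library, and its peaks lay between 5045 and 14853 bp after it, inside the antisense long noncoding RNA gene 0610031O16Rik. The length under peaks was 2872 and 833 bp in B6, 4791 and 4411 bp in MSM, 5649 bp in F1 BM and 2074 bp in F1 MB. Both MSM livers and F1 BM lay above both B6 livers, and F1 MB lay between the B6 values. MSM exceeded B6 by 2748.5 bp, against a pooled SD within strains of 1037 bp, and with 2 livers per strain the exact permutation p of 0.333 is the smallest that can be reached. Leaving out B6 replicate 2 lowered the difference to 1729 bp and leaving out B6 replicate 1 raised it to 3768 bp, and it was 2425 bp (pooled SD 436 bp) when the same number of peaks was kept in every list.

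The strain difference at *Adh7* was placed at particular regions of the gene. A region 5832 to 6625 bp after the start had a fold of 6.97 and 7.76 in MSM and of 3.13 and 3.11 in the hybrids, and no peak in B6. At 7082 to 9365 bp after the start all livers had a peak, with a fold of 6.32 and 3.15 in B6, 7.77 and 8.75 in MSM, 5.69 in F1 BM and 4.41 in F1 MB. At 12987 to 13813 bp, in the 3′ part of the gene, the values were 7.01 and 4.63 in B6, 4.28 and 5.14 in MSM, 4.94 in F1 BM and 5.76 in F1 MB. Thus the MSM livers were above the B6 livers at the first and second of these regions and within the B6 range or below it at the last. The strongest summit lay 9033 and 9049 bp after the start in MSM and 13599 and 13604 bp after it in B6. The highest fold at *Adh7* exceeded that of 45.9% and 37.7% of the genes with a peak in the B6 libraries, and of 73.8% and 80.7% in the MSM libraries. On the fold itself MSM exceeded B6 by 2.44 (pooled SD 1.29, exact permutation p = 0.333), or by 1.25 without B6 replicate 2.

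**Figure D1:**
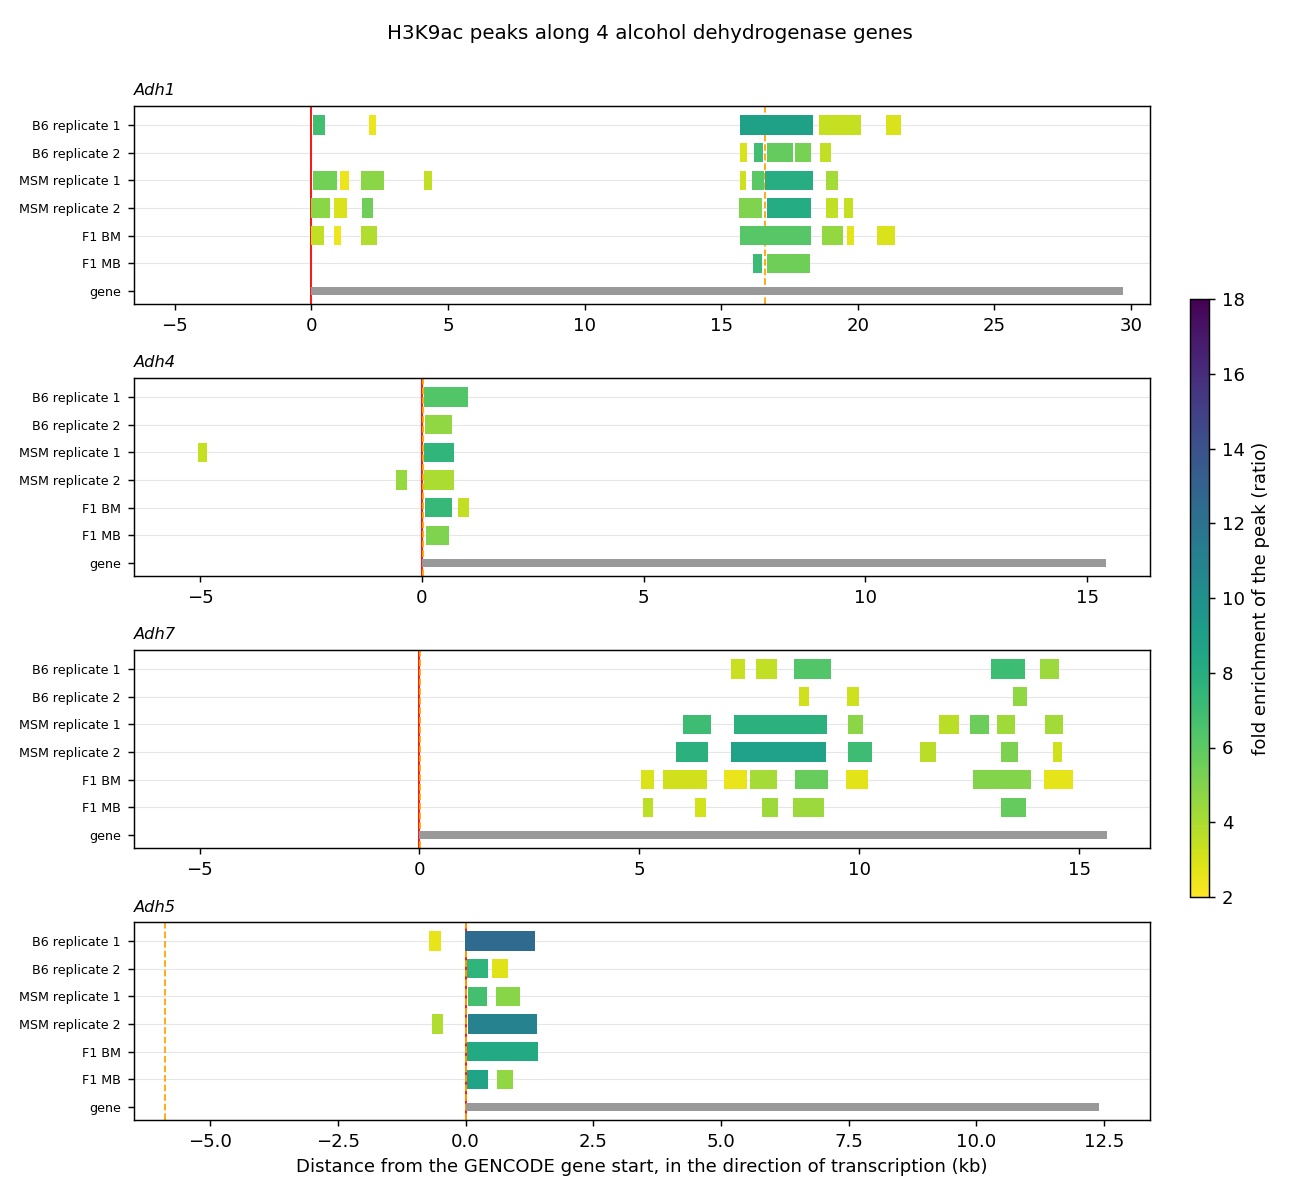
H3K9ac peaks (bars, one row per library) against the distance in kb from the GENCODE gene start (solid red line) in the direction of transcription, with RefSeq starts as dashed orange lines and the gene as a gray bar; the color gives the fold enrichment of each peak. At *Adh4* and *Adh5* peaks lie just after the start in all 6 libraries, at *Adh1* around the RefSeq start 16594 bp into the gene, and at *Adh7* only inside the gene.

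*Aldh2* encodes the mitochondrial enzyme that clears most acetaldehyde. Its start lies at position 121593824 of chromosome 5, on the minus strand, and all 6 livers had peaks in the merged region from -495 to 1835 bp around it. Only B6 replicate 1 had a single peak over that whole span, and in B6 replicate 2 the first peak began 244 bp after the start. The highest fold was 10.01 and 9.99 in B6, 13.7 and 17.3 in MSM, 6.37 in F1 BM and 12.9 in F1 MB. Both MSM livers were above both B6 livers, F1 MB was between the strains and F1 BM was below all of them. F1 BM had the lowest median fold over its whole list, 3.38 against 4.49 to 5.23 in the other libraries. The difference of 5.46 between MSM and B6 was larger than the spread within strains (pooled SD 1.79, exact permutation p = 0.333). Without MSM replicate 2 the difference was 3.66, and after dividing each fold by the median fold of its own list, an alternative chosen after seeing the data, it was 1.04 (pooled SD 0.375).

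The length under peaks at *Aldh2* gave no such order. It was 3642 and 2024 bp in B6, 2651 and 3205 bp in MSM, 3092 bp in F1 BM and 2881 bp in F1 MB. The MSM values lay within the B6 range, with a difference of 95 bp against a pooled SD of 855 bp (exact permutation p = 1). The strongest summit lay 450 to 499 bp after the start in every library. Thus the strains were separated by the highest fold at *Aldh2* and not by the summit position or the length. That fold exceeded that of 76.0% and 97.1% of the genes with a peak in the B6 libraries and of 97.9% and 99.4% in the MSM libraries. It exceeded that of 87.4% in F1 BM and 98.9% in F1 MB. By this rank B6 replicate 2 lay close to MSM replicate 1, and F1 BM lay above B6 replicate 1. At a second common region, 1928 to 3009 bp after the start, the strains overlapped. The fold there was 7.63 and 4.05 in B6, 4.49 and 10.4 in MSM, 3.89 in F1 BM and 5.21 in F1 MB. A short region 8950 to 9296 bp after the start had a peak in both MSM livers (fold 4.55 and 3.81) and in no other.

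*Aldh1a1* encodes a cytosolic retinaldehyde dehydrogenase that is abundant in the adult liver. The GENCODE gene starts at position 20492715 of chromosome 19, where no library had a peak. Of 2 regions with a peak in every library, the stronger, chr19:20602000-20603728, began just after the RefSeq start at position 20601968, which lies 109253 bp into the annotated gene, and the strongest summit lay 210 to 265 bp after that start in all 6 libraries. The highest fold was 5.36 and 5.58 in B6, 7.18 and 8.74 in MSM, 6.62 in F1 BM and 5.46 in F1 MB. Both MSM livers and F1 BM were above both B6 livers, and F1 MB lay between the B6 values. MSM exceeded B6 by 2.49 (pooled SD 0.785, exact permutation p = 0.333), and by 1.71 without MSM replicate 2. The second common region lay 112495 to 113769 bp after the gene start, with a fold of 3.59 and 2.98 in B6, 6.06 and 5.16 in MSM and 4.19 and 3.85 in the hybrids F1 BM and F1 MB. Both MSM livers were again above both B6 livers, and the hybrids lay between the strains.

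The acetylated length at *Aldh1a1* followed the same order of strains, with 3026 and 828 bp in B6, 5390 and 3225 bp in MSM, 6050 bp in F1 BM and 1290 bp in F1 MB. The lower MSM value exceeded the higher B6 value by less than the replicates of either strain differed. The difference was 2380.5 bp with a pooled SD of 1543 bp (exact permutation p = 0.333), and it was 1281.5 bp without B6 replicate 2 and 1298 bp without MSM replicate 1. Keeping the same number of peaks in every list gave 2208 bp (pooled SD 1125 bp). In the full lists the length at *Aldh1a1* includes peaks inside the overlapping gene C730002L08Rik. These covered 353 bp in B6 replicate 1 and 2000 and 552 bp in MSM, and F1 BM had such peaks too. Without them MSM replicate 2 no longer exceeded B6 replicate 1. Regions found in both MSM livers and in neither B6 liver lay 52548 to 54547 bp and 111803 to 112292 bp after the gene start. The first region lies inside C730002L08Rik, whose start was the annotated start nearest to the summits there. In F1 BM a peak with a fold of 2.48 lay in the first region. The second region was overlapped by a longer F1 BM peak whose summit lay in the next region downstream. F1 MB had a peak in neither.

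*Aldh1a7* encodes a rodent paralog of the *Aldh1a1* enzyme and lies 49487 bp from the window of that gene, with no peak of any library in between. Its MSM-specific region, chr19:20725821-20727510, began 52 bp after the start at position 20727562 (minus strand) and overlapped an exon. The length under peaks in the gene window was 0 bp in both B6 livers and F1 MB, 1602 and 2266 bp in MSM and 1553 bp in F1 BM. The highest fold was 6.96 and 8.61 in the MSM livers and 2.72 in F1 BM. The summit lay 219 and 204 bp after the RefSeq start in MSM, close to its place at *Aldh1a1*, and 621 bp after it in F1 BM. These values chose the gene and are given as a description.

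The 2 hybrids differed at *Aldh1a7*, as the F1 BM list had a peak and the F1 MB list had none, but the lists also differed in length, with 20173 peaks against 13235. When every list was cut to its 11619 peaks of lowest q, the peak next to the *Aldh1a7* start remained in both MSM lists (1602 and 1680 bp), while the second peak of MSM replicate 2 (586 bp) and the peaks of F1 BM did not. Of the 1641 stretches of 50 bases in the MSM-specific region, 98.8% occurred once in the reference genome. Within 2 mismatches 2.803% of them matched the *Aldh1a1* gene, and the median of the fewest mismatches was 20. By the Euclidean distance of log2 highest fold over the 6 libraries, with no peak counted as a fold of 1, the protein-coding genes most like *Aldh1a7* were *Methig1* and *Mettl7a2*, which overlap and share the same peaks (distance 0.321), and *Pax8* (0.454). In all, 30 of the 21911 protein-coding genes, *Aldh1a7* among them, had a peak in the same 3 libraries and in no other.

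**Figure D2:**
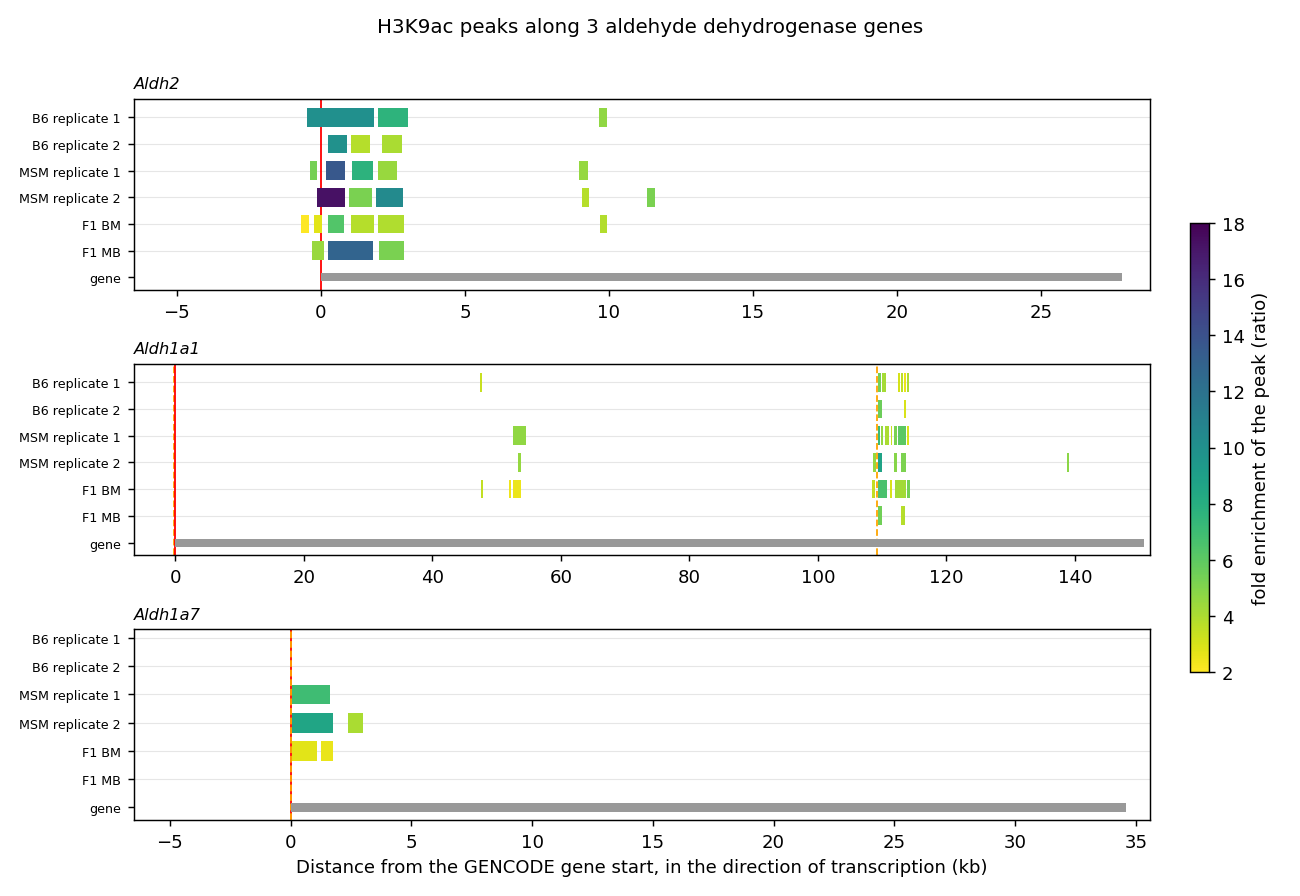
H3K9ac peaks along 3 aldehyde dehydrogenase genes, drawn as bars by library against the distance in kb from the GENCODE gene start (solid red line), with RefSeq starts as dashed orange lines and the fold enrichment as color. *Aldh1a7* has peaks in both MSM libraries and F1 BM and none in both B6 libraries and F1 MB, whereas all 6 libraries have a peak within 1 kb of the start of *Aldh2* and of the internal start of *Aldh1a1*.

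*Aldh1a2* and *Aldh1a3* encode retinaldehyde dehydrogenases best known from the embryo, where they supply retinoic acid to developing organs. Neither had a peak in any of the 6 lists. *Aldh1a2* lies at chr9:71215789-71296243 and *Aldh1a3* at chr7:66390890-66427517. A peak missing from a list means that no enrichment passed the threshold of that list, and read depth was not used here.

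**Figure D3:**
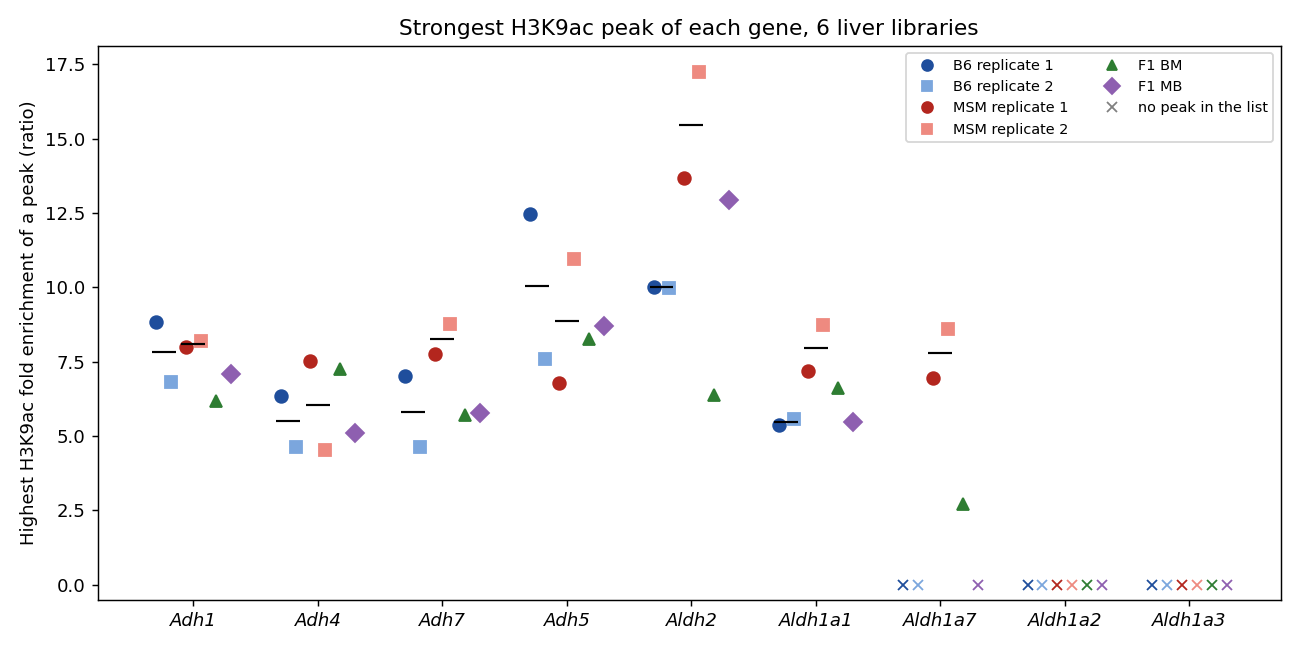
Highest fold enrichment (ratio) of an H3K9ac peak in the window of each gene, one point per library with the mean of each parental strain as a black line; crosses at 0 mark genes with no peak in that list. *Adh7*, *Aldh1a1* and *Aldh2* have both MSM points above both B6 points, and *Aldh2* in MSM reaches the highest values, 13.7 and 17.3.

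Across the 9 genes, the length under peaks was higher in both MSM livers than in both B6 livers at 3 genes, *Adh7*, *Aldh1a1* and the chosen *Aldh1a7*, while 4.97% of the 11446 protein-coding genes with a peak in a parental library behaved this way. No gene of the list was higher in both B6 livers, against 11.6% of those genes. The call at *Aldh1a1* depended on peaks inside C730002L08Rik, without which MSM replicate 2 no longer exceeded B6 replicate 1. The count also rested on the B6 pair. Without B6 replicate 1 all 7 genes with a peak were higher in MSM, as were 61.2% of all genes with a peak. Without B6 replicate 2 *Adh1*, *Adh4*, *Adh5* and *Aldh2* (4 genes) were higher in B6, as were 84.2% of all genes with a peak, and the same 3 were higher in MSM, against 5.03%. When each list was cut to the same covered length, 5 of the genes were higher in both MSM livers, but so were 17.5% of all genes with a peak. In those lists B6 replicate 1 kept 0 bp at *Adh4*, *Adh7* and *Aldh1a1*. On the highest fold, *Adh7*, *Aldh1a1* and *Aldh2* were higher in both MSM livers and none was higher in both B6 livers, where 8.59% and 10.8% of the 6706 genes with a peak in all 4 parental libraries were.

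**Figure D4:**
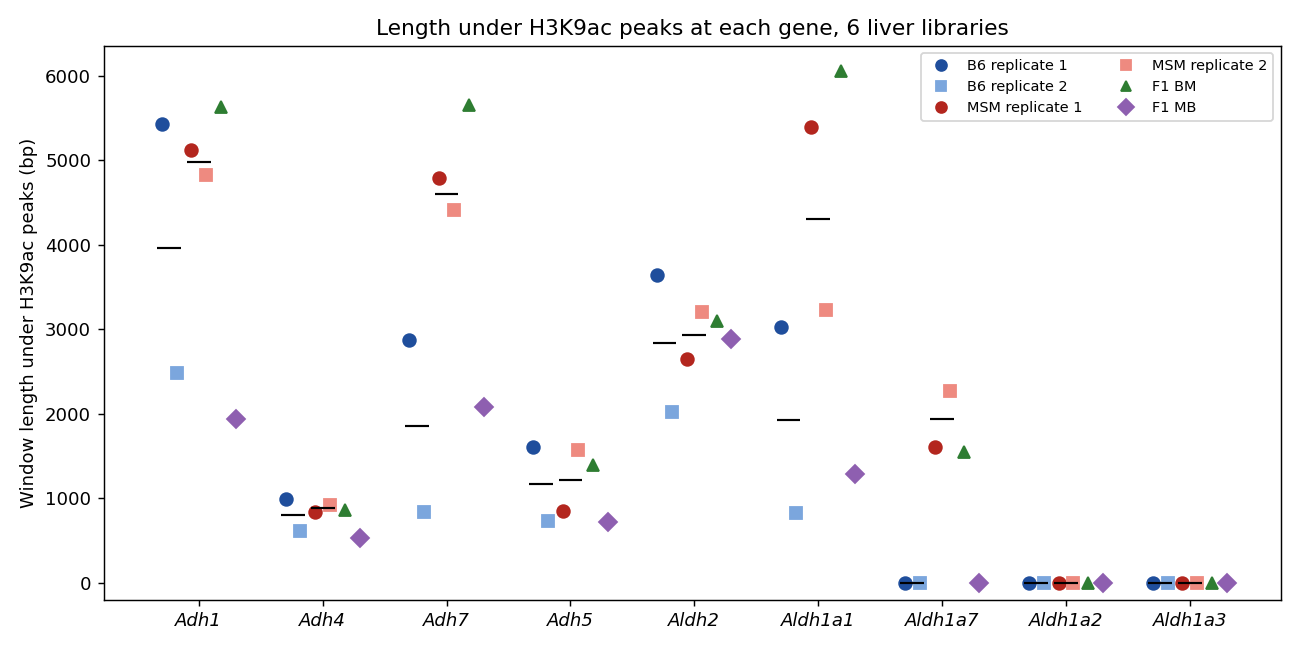
Length in bp of each gene window that lay under H3K9ac peaks, one point per library with the mean of each parental strain as a black line. The B6 libraries lie far apart at most genes, for example 5429 and 2485 bp at *Adh1*, and F1 BM has the highest value at *Adh1*, *Adh7* and *Aldh1a1*.

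The merged peaks of the parental livers gave 35 regions in these windows out of 25808 in the genome. Of the 35, 10 had a peak in all 4 parental livers, against 30.1% of all regions, and 14 had a peak in 1 of the 4, against 35.8%. The MSM-specific regions numbered 5, of which 1 is the *Aldh1a7* region that chose the gene, and the B6-specific ones 0, where 3.38% and 3.29% of all regions were of these kinds. The 5 were those described above, 1 each at *Adh7*, *Aldh1a7* and *Aldh2* and 2 at *Aldh1a1*. Of the 2 at *Aldh1a1*, 1 lies inside C730002L08Rik, and that of *Adh7* lies inside 0610031O16Rik. A peak of F1 BM overlapped 4 of the 5 and a peak of F1 MB 1, that of *Adh7*, where 64.1% and 22.9% of the 873 MSM-specific regions of the genome were overlapped by these lists of unequal length.

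The other genes of ethanol and retinoid metabolism formed a list of 53 genes. A peak at the gene start in all 6 libraries was found at 24 of them, or 45.3%, against 23.6% of all protein-coding genes, and 14, or 26.4%, had no peak in any library, against 47.2%. Of the 39 with a peak in a parental liver, 8 had more length under peaks in both B6 livers and 4 in both MSM livers, where 11.6% and 4.97% of all genes with a peak did, with a median difference between MSM and B6 of -188.5 bp. That median was -123.5 bp for all protein-coding genes with a peak. It was 1017 bp for the 7 dehydrogenase genes with a peak, a value that includes the chosen *Aldh1a7*, and 556 bp for the 6 without it. The sign of these medians rested on the B6 pair. Without B6 replicate 2 they were -112.5 bp for the 7 genes, -250.75 bp for the 6, -707 bp for the pathway genes and -441 bp for all genes, and without B6 replicate 1 they were 1934, 1696.5, 234.5 and 201 bp. The largest differences that did not overlap were those of *Aldh1l1*, a folate-linked aldehyde dehydrogenase (4872.5 bp), *Cyp2e1*, the microsomal ethanol oxidase (1581.5 bp), the fatty aldehyde dehydrogenase gene *Aldh3a2* (-1363 bp), the retinol dehydrogenase gene *Rdh16* (-1359 bp) and the retinol-binding protein receptor gene *Stra6l* (-1258 bp).

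At *Aldh1l1* the length under peaks was 14159 and 7203 bp in B6, 15560 and 15547 bp in MSM, 18011 bp in F1 BM and 14700 bp in F1 MB, so that B6 replicate 2 stood below the rest, and without it the difference was 1394.5 bp. *Cyp2e1* had 4796 and 2214 bp in B6, 5347 and 4826 bp in MSM, 7357 bp in F1 BM and 4140 bp in F1 MB, and without B6 replicate 2 its difference was 290.5 bp. *Aldh3a2* had 5060 and 3216 bp in B6 and 2824 and 2726 bp in MSM, and *Stra6l* had 3039 and 693 bp in B6 and 573 and 643 bp in MSM. Both rested largely on B6 replicate 1, without which their differences were -441 and -85 bp. In the parental livers *Rdh16* had the reverse pattern of *Aldh1a7*, with 1612 and 1106 bp in B6, 0 bp in both MSM livers, 1293 bp in F1 BM and 585 bp in F1 MB. Both hybrids thus had a peak at *Rdh16*, whereas only F1 BM had one at *Aldh1a7*. The highest mean fold over the parental livers was found at *Rdh7*, a retinol dehydrogenase gene (18.2), the retinoid X receptor gene *Rxra* (17.8), *Aldh1l1* (15.6), the plasma retinol carrier gene *Rbp4* (15.3) and the retinaldehyde reductase gene *Dhrs3* (15.0).

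**Figure D5:**
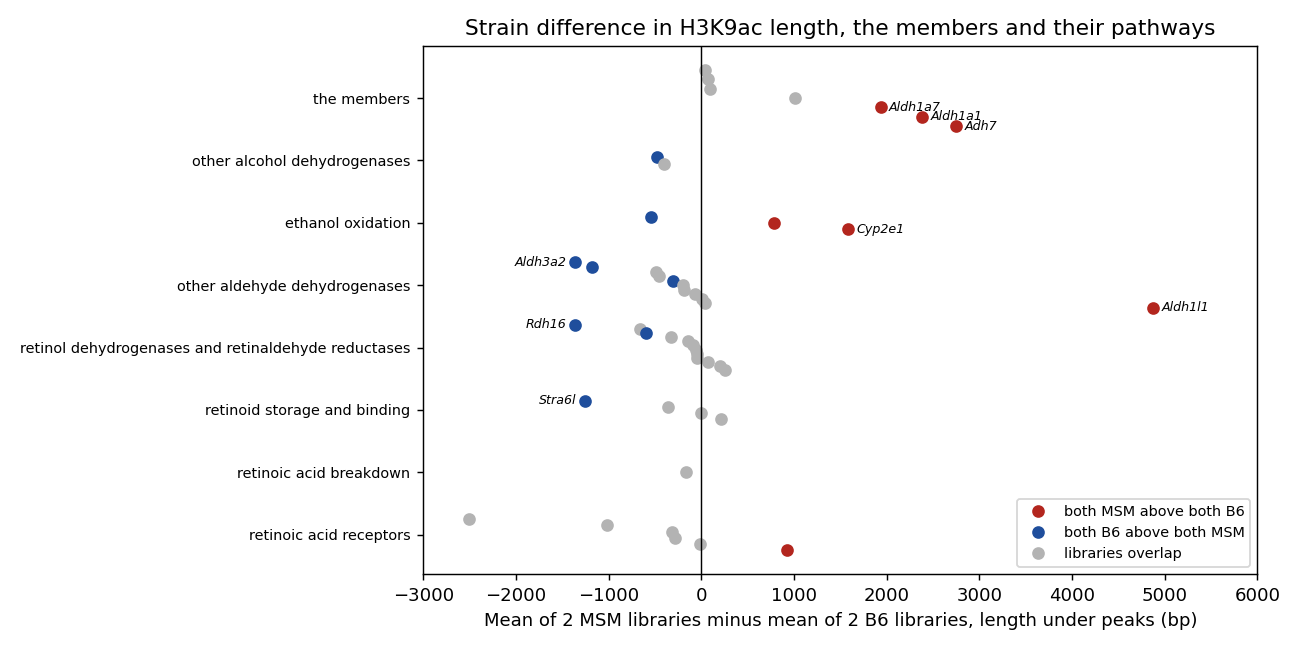
Mean of the MSM libraries minus mean of the B6 libraries in length under H3K9ac peaks (bp) for the 7 genes with a peak and for the pathway genes by group, 1 point per gene; red and blue points have libraries that do not overlap between the strains. The 3 red points among the dehydrogenase genes lie at 1934, 2380.5 and 2748.5 bp, and blue points occur only in the other groups.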

How the data were processed

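H3K9ac was measured by ChIP-seq in 6 livers, and 6 input samples were not analysed here. Per the study's methods, the authors trimmed paired reads with Trim Galore and mapped them to mm10 with Bowtie 2, allowing a long insert. The submitters' processing notes name Trim Galore, HISAT2, SAMtools and MACS2 without a role or version. The use of input and the threshold are not given in the sources used here. Since mm10 is the B6 sequence, MSM reads over differing sequence could be lost.

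The deposited lists, 1 per library and not pooled, gave for each peak a fold enrichment (a linear ratio over background) and the −log10 of the p-value and of the q-value, all as the authors' peak caller wrote them. The deposited score was not used. The lowest −log10 q in the deposited lists was 1.30 to 1.35. The lists hold no counts, so depth was not used and no count test was run.

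Gene windows, starts and protein-coding genes came from GENCODE M21, and promoter sequences from RefSeq. Peaks were compared by position with Python 3.11.15 and numpy 2.4.6 by functions tested on simulated data, and drawn with matplotlib 3.10.9. For each gene the bp under peaks and the highest fold were taken per library, and genes were called where both libraries of one strain lay above both of the other. Differences were tested by an exact two-sided permutation of the strain labels (smallest p 0.333 with 2 against 2) and set against the pooled SD. The genes, lists and tests were chosen with earlier results of these data known. All 9 genes were named; pathway genes were named when among the 5 highest in mean fold or the 5 largest differences that did not overlap; and the 3 genes most like *Aldh1a7* were named. Protein identity was not computed. Shorter lists, a stricter threshold, summits, other windows, each parental library left out and pairing by replicate number were tried.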

Additional observations from a re-analysis of the deposited data

How the results depend on the processing

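The higher MSM length at *Adh7* and *Aldh1a1* and the higher MSM fold at *Adh7*, *Aldh1a1* and *Aldh2* kept their direction and stayed apart from B6 in every alternative that gave a value. *Aldh1a7* did so too, a direction that its choice had fixed. Several of these alternatives only repeated the main value. The fold differences were unchanged with the same number of peaks, the stricter threshold, summits and the 2 kb window, where the strongest peak was kept. The lengths at *Adh7* and *Aldh1a1* were unchanged with summits and the 2 kb window. Such repeats are no separate support. With 5 kb either side of the start alone, *Adh7* and *Aldh1a1* gave no value. With lists of the same covered length B6 replicate 1 kept 0 bp at *Adh7* and *Aldh1a1*, which enters their length differences, and their fold could not be compared. No alternative with a value set aside all the *Aldh1a1* peaks inside C730002L08Rik. Without them, in the full lists, MSM replicate 2 no longer exceeded B6 replicate 1 in length. Leaving out each parental library gave 1729 to 3768 bp at *Adh7*, 1281.5 to 3479.5 bp at *Aldh1a1* and, in fold, 1.25 to 3.63, 1.71 to 3.27 and 3.66 to 7.25 at *Adh7*, *Aldh1a1* and *Aldh2*. The count of genes higher in MSM was 3 to 7 and that of genes higher in B6 was 0 to 4 when a library was left out. Lists of the same covered length gave 5 higher in MSM (17.5% of all genes with a peak), the same number of peaks gave 4 (8.87%) and 5 kb either side of the start alone gave 2 (4.4%). The count of genes with a peak at the start in every library went from 3 to 2 with lists of the same covered length. With the replicate block, pairing livers by number, the difference was 2748.5 bp at *Adh7* and 2380.5 bp at *Aldh1a1* (exact sign-flip p = 0.5, the smallest that 2 pairs allow). The labels do not tie equal numbers to a shared mouse or day. Pairing leaves the mean difference and the call as they were by construction, so only the spread and the p-value could change.

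The overlapping differences changed sign more readily. Keeping the same number of peaks gave -134.5 bp at *Adh4* and -163.5 bp at *Aldh2*, lists of the same covered length gave -320 bp at *Aldh2*, a window of 2 kb gave -4.5 bp at *Adh4*, and 5 kb either side of the start alone gave -183.5 bp at *Aldh2*. With a library left out the length differences ranged from -455 to 2489 bp at *Adh1*, -112.5 to 265.5 bp at *Adh4*, -389 to 480 bp at *Adh5* and -714 to 904 bp at *Aldh2*, and the fold differences from -0.756 to 1.28 at *Adh1*, -0.944 to 2.02 at *Adh4* and -3.61 to 1.28 at *Adh5*. The cause was not tested. Of 170 alternative values, 139 stayed on their side or, for counts of genes, within 1.5 times. Of the rest, 12 came apart in the same direction, 16 changed sign and 3 counts of genes moved by over 1.5 times. Another 3 counts changed by less, and all 6 are among those above. The 139 include the values of *Aldh1a7*, whose direction its choice had fixed, so they do not measure stability there. They also include values that only repeat the main one, such as those of the replicate block. B6 replicates 1 and 2 differed most in list length, and with no read counts a weak peak cannot be told from an absent one. The shares of all genes and the pathway differences with a library left out, and the totals and medians without *Aldh1a7* or a library, were added after seeing the data. So was the reading of *Aldh1a1* without the peaks inside C730002L08Rik.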

Other observations

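The alcohol dehydrogenase genes on chromosome 3 lie in the order *Adh7*, *Adh1*, *Adh6a*, *Adh6b*, *Adh6-ps1*, *Adh4* and *Adh5* on the plus strand, from 138217760 to 138455499. Outside the windows of the listed genes this stretch held 12 merged regions over the 6 libraries, of which 2 had a peak in every library. The stronger, at 138236709 to 138240651, covers the start of the antisense long noncoding RNA gene 0610031O16Rik, within which the peaks of *Adh7* lie. Its highest fold was 13.6 and 11.3 in B6, 16.4 and 19.2 in MSM, 9.17 in F1 BM and 11.1 in F1 MB. In each library this was above the highest fold at *Adh7*, *Adh1* and *Adh4*, and both MSM livers were above both B6 livers, as they were at *Adh7*. The other common region, at 138374026 to 138375316, covers the start of *Adh6-ps1*, annotated as a pseudogene, with a fold of 5.87 and 4.42 in B6, 6.98 and 4.86 in MSM, 6.59 in F1 BM and 5.69 in F1 MB. *Adh6a* and *Adh6b* had no peak in any library. The regions outside the windows were singled out after their values were seen and were not tested.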
